A study of Rattus norvegicus with 24 samples.

Results

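Growth hormone and insulin-like growth factor (IGF) ligands, receptors and early signalling genes were followed through cartilage of the rat proximal tibia. The 9 genes were Ghr, Igf1, Igf2, Igf1r, Igf2r, Insr, Irs1, Socs2 and Stat5b, chosen by name, and all 18 probe sets that the platform annotation assigns to them were read, of 31042 probe sets in all (14217 named genes). Of these 18 probe sets, 11 were bright enough to be tested, and they covered 8 of the 9 genes. Socs2 was on the array with 1 probe set, which lay under the array median in all 24 arrays. The animals were uncastrated rats aged 1 week, and no genotype, strain or treatment arm divides them. Stained 60 µm frozen sections were cut by hand into epiphyseal cartilage (n = 4 arrays, animals 1, 2, 4 and 5) and the resting, proliferative, transition and hypertrophic zones (n = 5 each, animals 1 to 5). The transition zone is the strip between the proliferative and hypertrophic zones. Male rats are named for 3 of the zones (resting, proliferative, hypertrophic), while epiphyseal and transition arrays have differently worded labels that give no sex. Hand dissection can leave neighbouring tissue in a zone, and fewer cells of a type or less RNA per cell cannot be told apart in such samples.

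Growth hormone acts through its receptor, Ghr, and the kinase bound to it to activate the transcription factor Stat5b. That factor induces Igf1 in many tissues and also Socs2, an inhibitor that restrains the same receptor. Igf1 and Igf2 signal through the tyrosine kinase receptor Igf1r, insulin through the related Insr, and both receptors use Irs1 as a docking protein. Igf2r, also known as the cation-independent mannose 6-phosphate receptor, binds Igf2 and carries it to lysosomes. In the growth plate this system is known to promote chondrocyte division and enlargement, and loss of Igf1 or Ghr function shortens long bones.

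Signals are MAS5 values on a linear scale, 1 per probe set, and zone differences are log2 fold changes of signal + 16 with the standard error of the fit. The pseudocount of 16 makes the change of dim probe sets appear smaller. A gene was called when its adjusted p was below 0.05 and its fold at least 2, and "rose" and "fell" are used of called genes. The number of arrays limits the precision. The labels give each array the number of an animal, which entered the fit as a block. The p-values thus measure zone differences against their spread from number to number. That spread is 1 estimate per probe set shared by all 5 zones, so a zone with a wide spread widens the standard error of every comparison of that gene. The labels do not state that a number means the same rat under both label wordings, and counts of animals below are counts of such numbers. The array median signal lay between 135.3 and 244.6. Of the 7 chondrocyte markers on the array, none lay under the array median throughout a zone, and their mean log2 signal was 14.99 in epiphyseal cartilage and 15.06 to 15.18 elsewhere. The label wording separates the epiphyseal and transition arrays from the other 3 zones, so whatever else the wording stands for and the zone cannot be told apart between these sets, and only proliferative, resting and hypertrophic arrays among themselves, or transition against epiphyseal arrays, share their wording. Scaling the arrays to one median turned the share of calls that were higher in the hypertrophic than in the transition zone from 73.2% to 43.1%, with a median over all probe sets of -0.241 in place of 0.016. For the proliferative against the resting zone the share went from 32.3% to 42.6%, and for the transition against the proliferative zone from 36.9% to 53.6%. No called difference of a member changed sign under that scaling.

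Of the 8 members tested, 6 differed across the 5 zones in the moderated F test (55.6% of all probe sets did). They were Ghr, Igf1, Igf1r, Igf2r, Insr and Irs1, and Igf2 (adjusted p = 0.0519) and Stat5b (adjusted p = 0.0701) did not pass. Igf1 had the widest spread between its highest and lowest zone mean, 3.79 on the log2 scale, wider than that of 99.0% of 10558 genes. Its lowest zone lay under the array medians, and the same difference was 4.51 with a pseudocount of 1 and 2.73 with one of 64. The spreads of Ghr (1.96) and Irs1 (1.54) exceeded those of 89.0% and 81.5% of genes. Igf2 had the narrowest, at 0.63, against a median of 0.85 over all genes.

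**Figure D1:**
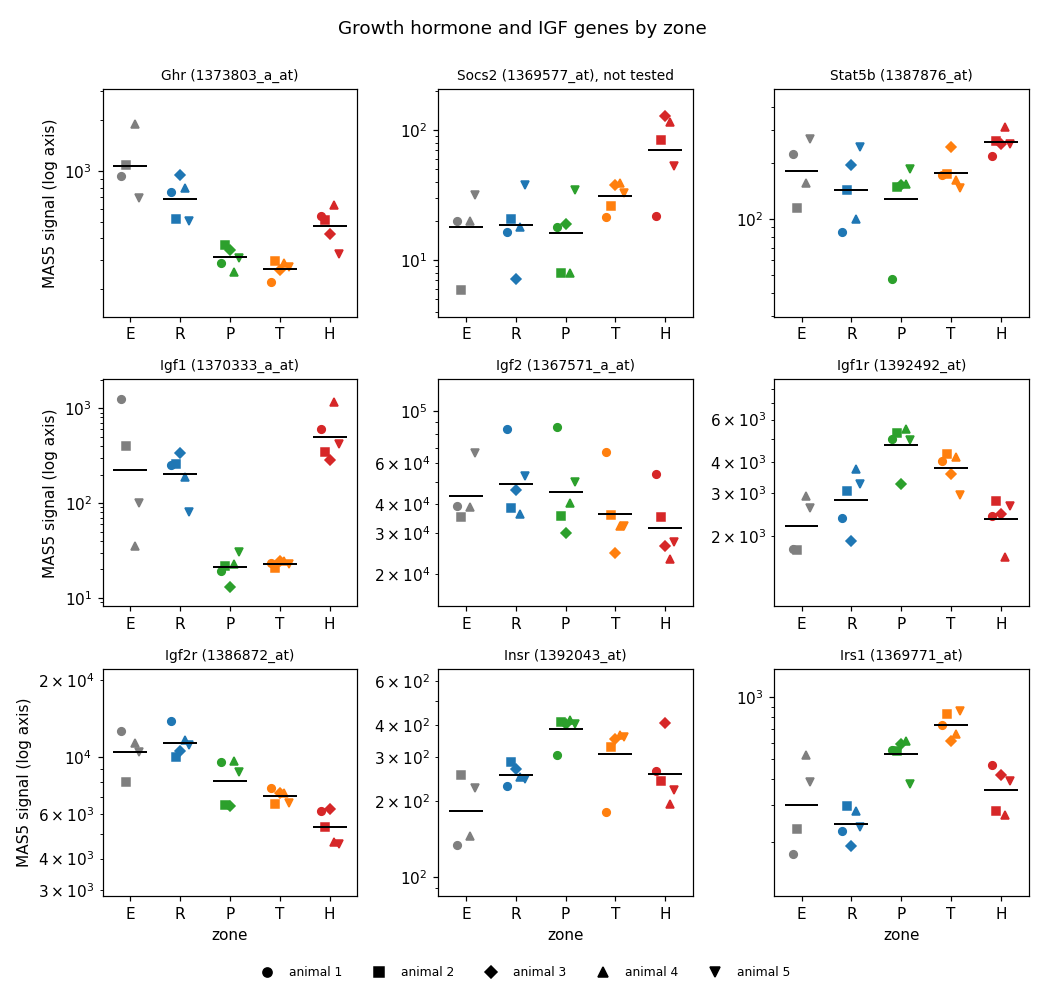
MAS5 signal (log axis) of the brightest probe set of each of the 9 genes in epiphyseal cartilage (E) and the resting (R), proliferative (P), transition (T) and hypertrophic (H) zones. Each symbol is 1 array, its shape the animal, and bars are means on the log2(signal + 16) scale. Igf1 and Ghr were low in P and T, where Igf1r and Irs1 were high.

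Between epiphyseal cartilage and the resting zone, 0 of 8 members were called, against 1.51% of all probe sets (limma, with an unadjusted p below 0.05 for 2 members, Ghr and Igf1r). From the resting to the proliferative zone 3 of 8 were called (6.09% of all probe sets): Ghr and Igf1 fell and Irs1 rose. From the proliferative to the transition zone 0 of 8 were called (8.43%), and 0 had an unadjusted p below 0.05 in limma. From the transition to the hypertrophic zone 2 of 8 were called (9.27%), Igf1 upward and Irs1 downward. Between the hypertrophic and proliferative zones, Igf1 alone was called (18.7% of all probe sets), and it rose. The 7 members not called there were under 2-fold, though all 8 had an unadjusted p below 0.05 in limma. That count was 6 between the resting and proliferative zones and 5 between the transition and hypertrophic zones. The median log2 fold change of the 8 members was 0.02 for resting minus epiphyseal, -0.13 for proliferative minus resting, -0.20 for transition minus proliferative, -0.22 for hypertrophic minus transition and -0.53 for hypertrophic minus proliferative. Over all probe sets these medians were 0.03, -0.02, -0.06, 0.02 and -0.05. Among the other pairs of zones, 3 were called between proliferative and epiphyseal cartilage (8.02%) and 3 between transition and epiphyseal cartilage (13.8%). The transition and resting zones gave 3 (17.8%), the hypertrophic zone and epiphyseal cartilage 1 (14.9%), and the hypertrophic and resting zones 1 (21.1%).

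**Figure D2:**
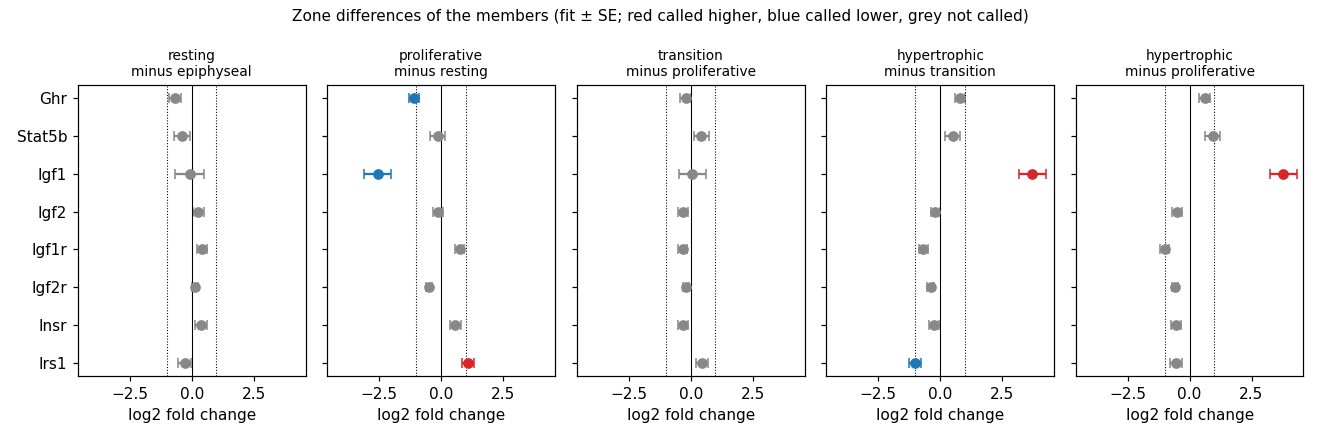
Log2 fold changes (x axis, fit ± SE) of the 8 tested members in 5 comparisons of zones. Red points were called higher, blue lower and grey not called, and dotted lines mark a 2-fold change. Igf1 reached 3.72 and 3.79 in the comparisons with the hypertrophic zone.

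The windows at the annotated starts of 4 genes are shown because these genes moved in opposite directions between the resting and proliferative zones, Igf1 and Ghr downward and Irs1 upward, with Igf1r higher there too. Each runs from 250 bases before to 50 after a start in RefSeq (assembly GRCr8), 5′ to 3′, with CpG dinucleotides in capitals. RefSeq can hold further starts of the same gene. The Igf1r and Irs1 windows include the outer 5′ end of the annotated gene. Those of Ghr (gene at 54269066 to 54532595) and Igf1 (gene at 24169608 to 24249446) lie inside the gene. The CpG counts of Ghr and Igf1 are thus of internal starts and are not like for like with the other pair.
Igf1, chr7:24172282-24172581, plus strand: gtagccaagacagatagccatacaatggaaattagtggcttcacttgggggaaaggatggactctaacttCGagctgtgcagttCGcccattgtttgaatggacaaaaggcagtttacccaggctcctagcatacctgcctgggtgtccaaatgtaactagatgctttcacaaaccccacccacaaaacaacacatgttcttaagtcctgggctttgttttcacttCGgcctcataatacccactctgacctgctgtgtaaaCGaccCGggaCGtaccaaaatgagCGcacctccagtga
Ghr, chr2:54432026-54432325, minus strand: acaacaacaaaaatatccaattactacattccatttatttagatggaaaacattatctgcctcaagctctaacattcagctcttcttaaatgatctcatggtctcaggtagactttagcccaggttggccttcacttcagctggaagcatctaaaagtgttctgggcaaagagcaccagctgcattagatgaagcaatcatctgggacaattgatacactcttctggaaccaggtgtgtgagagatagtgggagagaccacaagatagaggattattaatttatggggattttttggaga
Igf1r, chr1:130959747-130960046, plus strand: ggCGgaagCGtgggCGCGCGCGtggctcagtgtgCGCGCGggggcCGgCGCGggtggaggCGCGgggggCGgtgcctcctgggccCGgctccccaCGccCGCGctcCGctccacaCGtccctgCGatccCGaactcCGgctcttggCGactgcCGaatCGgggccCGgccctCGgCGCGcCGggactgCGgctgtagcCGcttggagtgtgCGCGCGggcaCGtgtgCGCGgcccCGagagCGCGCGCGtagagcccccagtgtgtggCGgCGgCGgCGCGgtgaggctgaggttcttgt
Irs1, chr9:91053910-91054209, minus strand: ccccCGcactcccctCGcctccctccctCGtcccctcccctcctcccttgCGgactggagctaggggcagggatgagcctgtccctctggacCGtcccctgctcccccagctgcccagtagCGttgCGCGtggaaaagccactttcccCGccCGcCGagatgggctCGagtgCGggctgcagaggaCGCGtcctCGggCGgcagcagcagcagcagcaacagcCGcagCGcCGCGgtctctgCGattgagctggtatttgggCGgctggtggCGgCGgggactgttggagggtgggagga

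The Ghr window held 0 CpG dinucleotides and the Igf1 window 7, with a GC content of 40.0% and 48.3%. The Igf1r and Irs1 windows held 50 and 25, with 78.0% and 70.3% GC. Observed over expected CpG was 0.40 for Igf1, 1.11 for Igf1r and 0.67 for Irs1, against a median of 0.39 over 33465 windows of the same length. Windows were matched for 8 of the 9 members, not for Socs2, and Stat5b (53 CpG dinucleotides), Igf2r (30) and Insr (28) also had many, while the pair of Igf2 windows had 19 and 7. The letters TTCNNNGAA, the core that STAT factors recognise, which reads the same on both strands, were in none of the members' windows and in 8.88% of all windows. GGGCGG, a GC box, was searched on both strands and found in the windows of Igf2, Igf1r, Igf2r, Irs1 and Stat5b, not in those of Igf1, Ghr and Insr, and in 33.1% of all windows. A match is a description of letters, and its absence here says nothing of binding.

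Igf1, the growth factor that carries much of the action of growth hormone, was low in the proliferative and transition zones. Its mean was highest in the hypertrophic zone, and its resting and epiphyseal levels varied between arrays. In the 5 proliferative arrays, animals 1 to 5, its signal on the brightest of 3 probe sets was 19, 21.9, 13, 23 and 30.8. In the transition arrays it was 23.1, 20.4, 24.3, 24.2 and 22.5. All 10 of these values lay under their array's median. The hypertrophic arrays read 604, 343, 285, 1168 and 425, above the array median in 5 of 5 and with no overlap with either of these zones. Resting arrays gave 249.5, 257, 339, 190 and 81.1, above all proliferative and transition values and overlapping the hypertrophic ones. Epiphyseal arrays of animals 1, 2, 4 and 5 gave 1265, 396, 35.6 and 99.5, a range that covers every resting and hypertrophic value. The signal was above the array median in 3 of 5 resting and 2 of 4 epiphyseal arrays. Igf1 fell from the resting to the proliferative zone, at -2.57 ± 0.55 (adjusted p = 0.00208), in 5 of 5 animals. It rose from the transition to the hypertrophic zone by 3.72 ± 0.55 (adjusted p = 2.53e-05) and stood 3.79 ± 0.55 higher in the hypertrophic than in the proliferative zone (adjusted p = 6.24e-06), a fold of 13.8, both in 5 of 5 animals. That fold rests on dim values in the proliferative arrays, and it was 4.51 on the log2 scale with a pseudocount of 1 and 2.73 with one of 64. The proliferative and transition zones differed by 0.07 ± 0.55 (adjusted p = 0.952), and resting and epiphyseal cartilage by -0.08 ± 0.59 (adjusted p = 0.97). In the order hypertrophic, epiphyseal, resting, transition, proliferative, hypertrophic minus epiphyseal was 1.13 ± 0.59 (adjusted p = 0.159). Hypertrophic minus resting was 1.22 ± 0.55 (adjusted p = 0.0804), and neither was called. In limma the difference from the resting zone was called under 3 of 20 alternatives. These were a pseudocount of 64 (1.05, adjusted p = 0.0499), no epiphyseal arrays of animals 1 and 2 (1.22, adjusted p = 0.0256) and only the zones compared (1.22, adjusted p = 0.0196).

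The second Igf1 probe set was dimmer, with 30.8 to 329 in the hypertrophic and 7.6 to 117 in the proliferative arrays, which overlapped. It exceeded the array median in 4 of 24 arrays, the lowest number that the filter accepts: 2 hypertrophic, 1 resting and 1 epiphyseal. Like the brightest probe set, it thus entered the test through other zones than the proliferative and transition zones. The second probe set was called between the hypertrophic and proliferative zones, at 1.45 ± 0.51 (adjusted p = 0.0277). It was not called between the hypertrophic and transition zones, at 1.09 ± 0.51 (adjusted p = 0.132), or between the proliferative and resting zones, at -1.18 ± 0.51 (adjusted p = 0.132). The call did not hold under 7 of 19 alternatives, among them leaving out animal 1 (adjusted p = 0.0863), 3 (adjusted p = 0.08) or 4 (adjusted p = 0.107), or only the hypertrophic array of animal 4 (adjusted p = 0.117). The third probe set exceeded the array median in 1 of 24 arrays and was not tested. Over the 24 arrays the log2 values of the 3 probe sets correlated at 0.66 to 0.70, and the brightest gave the larger zone differences.

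Osteoclast and macrophage markers moved with Igf1. The summed signal of the 11 markers on the array (of 12) was 872.5 to 1896 in proliferative, 1527 to 2478 in transition and 9490 to 85860 in hypertrophic arrays. In resting arrays it was 1835 to 25840 and in epiphyseal arrays 3044 to 67800. Calcr and Cd163 lay under the array median in every hypertrophic array. The highest Igf1 signals of epiphyseal cartilage and of the hypertrophic zone were in the arrays with the highest marker sums, animal 1 (67800) and animal 4 (85860). The same arrays had the highest sums of their zones for osteoblast (28570 and 115300) and endothelial markers (5830 and 2824). That did not hold for both arrays with erythroid, leukocyte, skeletal muscle or perichondrium and fibroblast markers. In the resting arrays of animals 2 and 4, Igf1 read 257 and 190 with sums of 1835 and 1927, while the proliferative array of animal 5, at a sum of 1896, read 30.8. In the epiphyseal arrays of animals 4 and 5, with sums of 3625 and 3044, Igf1 read 35.6 and 99.5. Without the hypertrophic array of animal 4, the hypertrophic minus proliferative difference of Igf1 was 3.35 (adjusted p = 3.8e-05). With the mean log2 signal of the 11 markers as a covariate it was 1.65 (adjusted p = 0.049), the hypertrophic minus transition difference was 1.73 (adjusted p = 0.0486), and the proliferative minus resting difference was -1.62 (adjusted p = 0.0144). This covariate did not overlap between hypertrophic or epiphyseal arrays and proliferative or transition arrays. Its values for those comparisons, here and for the genes below, therefore cannot separate the zone from the markers. Resting and proliferative arrays overlapped only at 7.13 (resting, animal 2) against 7.15 (proliferative, animal 5), so this limit nearly holds there too. No other marker list was used as a covariate. When the epiphyseal arrays from animals 1 and 2 were left out, proliferative minus epiphyseal Igf1 was -1.04 (adjusted p = 0.322) in place of -2.65, and transition minus epiphyseal was -0.97 (adjusted p = 0.267) in place of -2.58, so neither call held. Hypertrophic minus epiphyseal Igf1 was then 2.75 (adjusted p = 0.00163), against 1.13 with all arrays. Leaving out animal 1 altogether gave -1.82 (adjusted p = 0.0717) for the proliferative and 1.87 (adjusted p = 0.0318) for the hypertrophic comparison. Between the hypertrophic and proliferative zones, 4 of 4 erythroid, 4 of 5 leukocyte, 4 of 4 osteoblast, 3 of 5 endothelial and 2 of 7 skeletal muscle markers tested were also called higher. Of 7 perichondrium and fibroblast markers 2 rose and 1 fell. Between these zones 18.7% of all probe sets were called either way. The part of all these cells in the Igf1 difference was not tested.

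**Figure D3:**
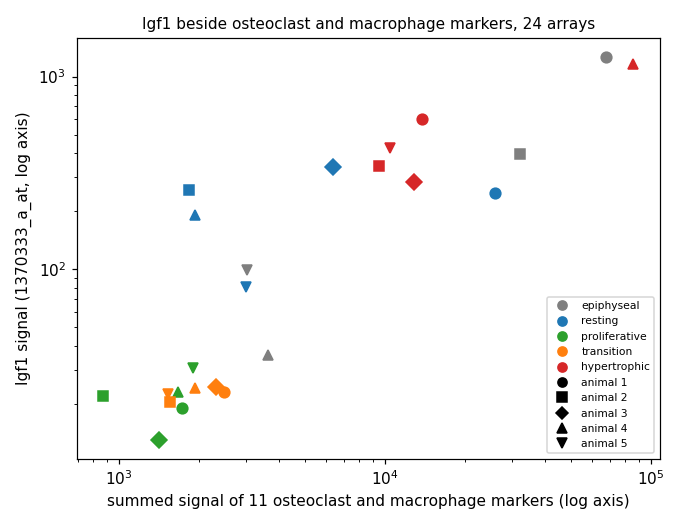
Igf1 signal (y axis, brightest probe set) against the summed signal of 11 osteoclast and macrophage markers (x axis) in 24 arrays, both on log axes. Colours are zones and shapes are animals. Resting arrays of animals 2 and 4 read 257 and 190 at marker sums of 1835 and 1927, against sums of 872.5 to 1896 in proliferative arrays. Epiphyseal arrays of animals 4 and 5 read 35.6 and 99.5 at sums of 3625 and 3044. The part of these cells in the Igf1 signal was not tested.

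Igf2, the fetal growth factor of the pair, was bright in every zone. Its bright probe set read 84062, 38519.7, 46112, 36108 and 52609.5 in resting and 85915, 35519, 30198, 40445 and 49866 in proliferative arrays of animals 1 to 5. Transition arrays read 67082, 35869, 24766, 32252 and 32290.5, hypertrophic arrays 53833, 35359, 26410.1, 23282 and 27425, and epiphyseal arrays 39244, 35126, 38777 and 66092. All 5 zones overlapped, and animal 1 had the highest value of the resting, proliferative, transition and hypertrophic arrays. The brightest probe set of those 4 arrays of animal 1 also reached 106721 to 180521, against 36662 to 96938 in the other 20 arrays, and the part of that array-wide difference in Igf2 was not tested. Hypertrophic cartilage was lower than the resting zone in 5 of 5 animals, at -0.63 ± 0.20 (95% interval -1.03 to -0.22, adjusted p = 0.012), and lower than the proliferative zone in 5 of 5, at -0.51 ± 0.20 (adjusted p = 0.0446). Both differences were under 2-fold and not called. Epiphyseal and resting cartilage differed by 0.27 ± 0.21, with a 95% interval of -0.17 to 0.71. The other 3 Igf2 probe sets, all designed from 1 older sequence record, read 11.4 to 159.9, 8.8 to 96 and 4.9 to 33.5, under the array median in all 24 arrays, and their correlations with the bright probe set were 0.44, 0.06 and -0.30. The zone pattern of Igf2 thus rests on 1 probe set.

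Ghr, which encodes the growth hormone receptor and, by splicing, its circulating binding protein, was highest in epiphyseal cartilage and lowest in the middle of the growth plate. Its tested probe set read 938, 1084, 1909 and 696 in epiphyseal cartilage of animals 1, 2, 4 and 5 and 755, 524, 949.6, 798 and 506 in the resting zone of animals 1 to 5. Proliferative arrays read 288, 368, 343, 252 and 306, transition arrays 220.5, 295, 262, 285 and 270.4 and hypertrophic arrays 546, 512, 425, 631 and 324. The proliferative and transition arrays lay below all resting and epiphyseal arrays. Ghr fell from the resting to the proliferative zone, at -1.11 ± 0.21 (adjusted p = 0.000577) in 5 of 5 animals, a fold of 2.16. Without animal 4 this was just under 2-fold, at -0.991 (adjusted p = 0.00391). In the transition zone it was lower than in epiphyseal cartilage, arrays of the same label wording, at -1.99 ± 0.23 (adjusted p = 3.66e-07) in 4 of 4 animals. In the hypertrophic zone it was higher than in the proliferative zone in 5 of 5 animals, at 0.60 ± 0.21 (adjusted p = 0.027), and than in the transition zone, at 0.81 ± 0.21 (adjusted p = 0.00679), neither of which reached 2-fold. In the order epiphyseal, resting, hypertrophic, proliferative, transition, 3 of the 4 neighbouring steps did not pass the adjusted p: resting minus epiphyseal was -0.67 ± 0.23 (adjusted p = 0.136), hypertrophic minus resting -0.51 ± 0.21 (adjusted p = 0.0518) and transition minus proliferative -0.21 ± 0.21 (adjusted p = 0.539). Of the markers tested between the resting and proliferative zones, 4 of 7 skeletal muscle, 3 of 5 leukocyte and 1 of 9 osteoclast and macrophage genes fell beside Ghr and Igf1, and 3 of 7 perichondrium and fibroblast genes fell and 1 rose. Between these zones 6.09% of all probe sets were called either way. The muscle sum was 11040 to 93190 in resting and 6165 to 18120 in proliferative arrays, and Mb lay under the median in both. The part of these cells in the Ghr and Igf1 falls was not tested. With the osteoclast and macrophage covariate the Ghr fall was -1.12 (adjusted p = 0.0016). The other Ghr probe set read 8 to 143 and never exceeded the array median.

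Igf1r, the tyrosine kinase receptor of both IGFs, was highest where Igf1 was lowest. Its brighter probe set read 4986, 5299, 3251, 5489.5 and 4926 in the proliferative and 4042, 4313, 3580.2, 4205 and 2953 in the transition arrays of animals 1 to 5. Resting arrays read 2367, 3064, 1894, 3769 and 3276, hypertrophic arrays 2409, 2790.4, 2462, 1641 and 2656 and epiphyseal arrays 1756, 1749, 2916 and 2612. All proliferative values exceeded all hypertrophic and all epiphyseal values, and they overlapped the resting values. Igf1r was higher in the proliferative than in the resting zone in 5 of 5 animals, by 0.75 ± 0.18 (adjusted p = 0.00615), which did not reach 2-fold. The dimmer probe set was called for the same step, at 1.10 ± 0.20 (adjusted p = 0.000492). Its values did not overlap, with 1074 to 2126 in proliferative and 509.6 to 990.4 in resting arrays. With the osteoclast and macrophage covariate that difference was 0.81 (adjusted p = 0.00374), under 2-fold. The probe sets correlated at 0.88 over 24 arrays. Against epiphyseal cartilage both were called higher in the proliferative zone, at 1.16 ± 0.20 (adjusted p = 0.000145) for the brighter and 1.20 ± 0.22 (adjusted p = 0.000357) for the dimmer one, each in 4 of 4 animals. With only the epiphyseal arrays from animals 4 and 5 these values were 0.82 (adjusted p = 0.028) and 0.88 (adjusted p = 0.0418), under 2-fold. With the osteoclast and macrophage covariate they were 0.56 (adjusted p = 0.0826) and 0.60 (adjusted p = 0.128), so both calls were lost. The covariate did not overlap between these zones, so it cannot separate the zone from the markers.

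Towards the hypertrophic zone Igf1r was lower in 5 of 5 animals on both probe sets. For the brighter one, hypertrophic minus proliferative was -0.997 ± 0.18 (adjusted p = 0.000115), at the edge of 2-fold and not called, and for the dimmer one it was -0.91 ± 0.20 (adjusted p = 0.000997). The brighter probe set passed without animal 2 (-1.016), 3 (-1.146) or 5 (-1.024), and the dimmer one without animal 2 (-1.049). Scaling the arrays to one median made both probe sets pass, at -1.105 (adjusted p = 2.95e-05) and -1.017 (adjusted p = 0.000274). With the osteoclast and macrophage covariate they were -0.34 (adjusted p = 0.267) and -0.25 (adjusted p = 0.527). Transition minus proliferative was -0.32 ± 0.18 (adjusted p = 0.24) for the brighter probe set, and these neighbours at the top of the order overlapped.

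**Figure D4:**
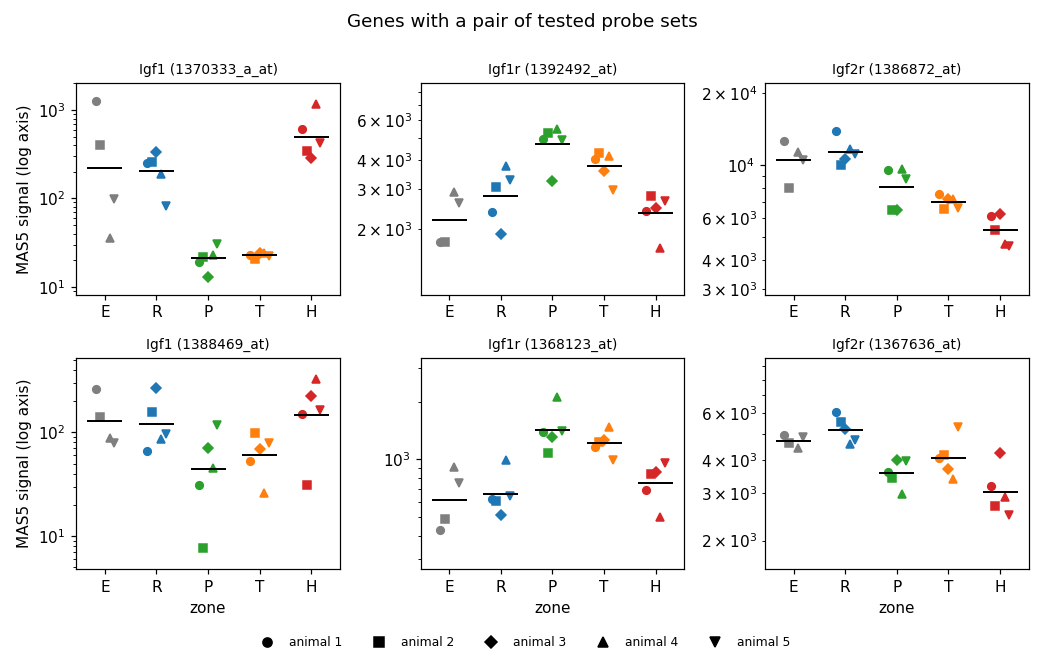
MAS5 signal (log axis) by zone for the genes with a pair of tested probe sets, brighter above and dimmer below, with zones, symbols and bars as in the plot of all 9 genes. Over 24 arrays the pairs of probe sets correlated at r = 0.88 for Igf1r, 0.73 for Igf2r and 0.70 for Igf1.

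Igf2r, the clearance receptor of Igf2, was highest in the resting and lowest in the hypertrophic zone. Its brighter probe set read 13824, 9989, 10553, 11709 and 11162 in the resting and 6130, 5319, 6246, 4668 and 4559 in the hypertrophic arrays of animals 1 to 5. Proliferative arrays read 9549, 6470.3, 6450.2, 9631 and 8765 and transition arrays 7583, 6539, 7203, 7218 and 6616, while epiphyseal arrays read 12667, 8014, 11343 and 10454. The lowest resting value exceeded every proliferative, transition and hypertrophic value. Igf2r fell from the resting to the hypertrophic zone, at -1.09 ± 0.13 (adjusted p = 1.88e-07), a fold of 2.13, in 5 of 5 animals, and these arrays share their label wording. The single steps were each under 2-fold: -0.50 ± 0.13 (adjusted p = 0.00889) from resting to proliferative, -0.20 ± 0.13 (adjusted p = 0.304) to transition and -0.39 ± 0.13 (adjusted p = 0.0268) to hypertrophic cartilage. The dimmer probe set, with 4601 to 6041 in resting and 2495 to 4236 in hypertrophic arrays, had the same direction at -0.77 ± 0.14 (adjusted p = 5.97e-05), which was not called. Its single steps were not a steady decline. They were -0.54 ± 0.14 to proliferative, 0.19 ± 0.14 (adjusted p = 0.362) to transition and -0.42 ± 0.14 to hypertrophic cartilage. The mean of both probe sets gave -0.93 (adjusted p = 4.61e-07), also short of 2-fold.

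Insr, the insulin receptor gene, had 1 tested probe set. Its signal was 305, 414, 407, 419 and 406 in the proliferative and 229.9, 287, 269, 249 and 244 in the resting arrays of animals 1 to 5, which did not overlap, yet the difference of 0.57 ± 0.21 (adjusted p = 0.076) did not pass. Transition arrays read 182, 327, 352, 368 and 361, hypertrophic arrays 263, 241, 409, 194 and 221 and epiphyseal arrays 134, 255, 145 and 226. Insr was highest in the proliferative zone, as Igf1r was, and proliferative minus epiphyseal was 0.96 ± 0.23 (adjusted p = 0.00505) in 4 of 4 animals, under 2-fold. Hypertrophic minus proliferative was -0.56 ± 0.21 (adjusted p = 0.0402). The second probe set read 6.6 to 290.1, exceeded the array median in 2 of 24 arrays and correlated with the first at -0.12, so the zone pattern rests on 1 probe set.

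Irs1, the docking protein that links Igf1r and Insr to phosphoinositide 3-kinase, had its highest level in the transition zone. Signals of its single probe set were 734, 829.5, 615, 662 and 856 in transition and 555, 550.2, 591, 614 and 382 in proliferative arrays of animals 1 to 5. They were 226, 296, 189.9, 279.8 and 235 in resting, 469, 280, 419, 268 and 391 in hypertrophic and 174, 229.8, 525 and 388 in epiphyseal arrays. Every transition array exceeded every array of the other zones, though barely for the proliferative zone (614.7 in animal 3 against 613.7 in animal 4). The proliferative arrays exceeded all resting arrays. Irs1 rose from the resting to the proliferative zone by 1.08 ± 0.24 (adjusted p = 0.00324), a fold of 2.12, and was 1.54 ± 0.24 higher in the transition than in the resting zone (adjusted p = 1.99e-05), both in 5 of 5 animals. Transition minus proliferative was higher in 5 of 5 animals and did not pass, at 0.45 ± 0.24 (adjusted p = 0.199). From the transition to the hypertrophic zone Irs1 fell, at -1.01 ± 0.24 (adjusted p = 0.00392), again in 5 of 5 animals. This last call lies at the edge of 2-fold: the value was -0.88 without animal 2 (adjusted p = 0.0406), -0.94 without animal 4 (adjusted p = 0.0105) and -0.98 without animal 5 (adjusted p = 0.0178). The rise to the proliferative zone was 0.96 without animal 3 (adjusted p = 0.0331). Transition minus epiphyseal, between arrays of the same wording, was 1.25 ± 0.26 (adjusted p = 0.000799), and it was 0.64 (adjusted p = 0.111) with only animals 4 and 5 in the epiphyseal group. The hypertrophic minus transition difference was -0.84 (adjusted p = 0.0152) without the hypertrophic array of animal 4 and -0.95 (adjusted p = 0.0142) without the transition array of animal 5. Of the tested osteoclast and macrophage markers 7 of 9 rose from the transition to the hypertrophic zone (6.78% of all probe sets were called higher). With the osteoclast and macrophage covariate the Irs1 rise to the proliferative zone was 0.67 (adjusted p = 0.0242). The fall to the hypertrophic zone was -0.15 (adjusted p = 0.763).

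Stat5b, the transcription factor activated downstream of Ghr, read 217, 263, 254, 310.2 and 252 in hypertrophic and 47.7, 148, 153, 155 and 186 in proliferative arrays of animals 1 to 5. Resting arrays read 84.6, 143, 195, 99.6 and 243, transition arrays 173, 174, 243, 161 and 146 and epiphyseal arrays 223, 114, 156 and 268. It was above the array median in 14 of 24 arrays. Hypertrophic arrays exceeded the proliferative arrays without overlap, by 0.93 ± 0.30 (adjusted p = 0.0159) in 5 of 5 animals, which is under 2-fold. Hypertrophic minus resting was 0.79 ± 0.30 (adjusted p = 0.0368), also in 5 of 5 animals and also not called. Without animal 5 the hypertrophic minus proliferative difference was 1.06 (adjusted p = 0.017), past 2-fold. Zones next to each other in the order of means overlapped.

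Socs2, the feedback inhibitor induced by growth hormone, was dim. Its single probe set read 22, 84.5, 129, 115 and 52.8 in hypertrophic arrays of animals 1 to 5 and 21.5, 26.2, 38.2, 39.1 and 33.2 in transition arrays. In proliferative, resting and epiphyseal arrays it read 8 to 34.6, 7.2 to 37.7 and 5.9 to 32. Of the hypertrophic arrays 4 of 5 exceeded every other array, and all 24 lay under the array median, so these values were not tested.

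Across the 24 arrays, log2 values of Igf1 correlated with those of Igf1r at r = -0.83 and of Irs1 at -0.78, and Ghr with Igf1r at -0.66 and Irs1 at -0.68. Igf1 and Ghr correlated at 0.56, Igf1r and Irs1 at 0.66 and Igf1r and Insr at 0.56. These values describe the zone pattern of genes that share arrays, animals and scaling. The genes whose log2 values followed Igf1 most closely, of 10558, were Slit2 (r = 0.915), Maf (0.898) and F2r (0.888). For Ghr they were C1qtnf2 (0.907), Fbn2 (0.879) and Fhl1 (0.876), and for Igf2r Mllt3 (0.933), Sobp (0.912) and Cmtm5 (0.902). Igf2 followed the ribosomal protein genes Rps3a (0.958), Rpl5 (0.950) and Rpl3 (0.945), which are bright on all arrays. Igf1r was closest to Stimate (0.853), Lpar1 (0.825) and Muc1 (0.819), Irs1 to Aldoc (0.869), Nat8l (0.847) and Slc11a2 (0.844), Insr to Tmem276 (0.834), Cpa6 (0.799) and Lrp8 (0.785), and Stat5b to Irgm2 (0.781), Rbpms (0.770) and Bbc3 (0.747).

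Other genes of the pathway were read from 5 lists of 77 genes, of which 57 were tested and 44 differed across zones (against 55.6% of all probe sets). From the transition to the hypertrophic zone 12 of 57 rose and 0 fell, against 6.78% of all probe sets called higher, with a median log2 fold change of 0.17. Scaling to one median gave 8 risen and 4 fallen with a median of -0.11, and the osteoclast and macrophage covariate 4 and 0. Between the hypertrophic and proliferative zones 13 rose and 5 fell, where 18.7% of all probe sets were called either way. From the resting to the proliferative zone 2 rose and 6 fell (6.09%), from the proliferative to the transition zone 3 and 3 (8.43%), and from epiphyseal to resting cartilage 1 and 3 (1.51%).

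Genes that set IGF availability were mostly called higher in the hypertrophic than in the transition zone. Of 10 tested binding protein, protease and stanniocalcin genes, 7 rose from the transition to the hypertrophic zone and 0 fell, with a median of 1.33 against 0.02 over all probe sets, of which 6.78% were called higher. Scaling to one median gave 5 and 1, leaving out the transition array of animal 5 gave 5 and 0, and the osteoclast and macrophage covariate gave 2 and 0. Igfbp6 rose by 1.42 ± 0.34 (adjusted p = 0.00334), Igfbp5 by 1.61 ± 0.41 (adjusted p = 0.0062) and Htra1, a secreted protease, by 1.93 ± 0.53 (adjusted p = 0.00952), each in 5 of 5 animals. From the resting to the proliferative zone 3 of 10 fell (6.09% of all probe sets were called either way): Pappa2, a protease that cleaves IGF binding proteins, at -2.30 ± 0.28 (adjusted p = 2.31e-06), Igfbp5 at -1.80 ± 0.41 and Igfbp4 at -1.20 ± 0.34. Pappa2 was higher in the resting zone than in epiphyseal cartilage, at 1.59 ± 0.31, and Igfbp5 lower, at -2.11 ± 0.44. Stc1, a stanniocalcin that inhibits that class of protease, fell from the proliferative to the transition zone, at -1.28 ± 0.26, and was lower still in the hypertrophic zone, at -2.15 ± 0.26 against the proliferative zone. Against that zone 5 of the 10 rose in hypertrophic cartilage and 2 fell (18.7% of all probe sets were called either way). Those that fell were Stc1 and Pappa2 (-1.36 ± 0.28), and Igfbp5, at 2.23 ± 0.41, was among those that rose.

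Inside the cell, 11 genes of growth hormone receptor signalling gave 1 rise and 0 falls between the resting and proliferative zones (6.09% of all probe sets were called), that of Sh2b2, an adaptor of receptor tyrosine kinases, at 2.09 ± 0.32 (adjusted p = 5.35e-05). Sh2b2 fell again in the transition zone, at -1.14 ± 0.32. Ptpn6, a phosphatase abundant in blood cells, rose by 1.84 ± 0.41 from the transition to the hypertrophic zone. There 5 of 5 leukocyte markers rose too, and 6.78% of all probe sets were called higher. Among 10 receptor substrates and adaptors, Grb14, an inhibitor of insulin receptor signalling, fell to the proliferative zone (-1.46 ± 0.29) and rose to the transition zone (2.25 ± 0.29, adjusted p = 4.23e-06). Igf2bp3, which binds Igf2 messenger RNA, was lower in resting than in epiphyseal cartilage, at -1.76 ± 0.19, and rose from the proliferative to the transition zone by 1.45 ± 0.18. Grb10, a related inhibitory adaptor, was lower in the hypertrophic than in the proliferative zone, at -1.15 ± 0.15.

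In the branch of phosphoinositide 3-kinase, Akt and mTOR, 1 of 22 tested genes rose and 2 fell from the resting to the proliferative zone (6.09% of all probe sets were called). Foxo4, a transcription factor inhibited by Akt, rose by 1.38 ± 0.23, while Inppl1, a lipid phosphatase, fell, at -1.68 ± 0.14 (adjusted p = 5.88e-09), as did Rps6kb1, the S6 kinase, at -1.03 ± 0.22. Rps6kb1 then rose by 1.57 ± 0.22 in the transition zone. From the transition to the hypertrophic zone 2 of 22 rose (6.78% of all probe sets were called higher), Gsk3b, a kinase inhibited by Akt, by 1.71 ± 0.20 and Ddit4, an inhibitor of mTOR, by 1.21 ± 0.22. In the Ras and MAPK branch 4 of 11 genes were tested and 1 was called, Dusp6, a phosphatase of ERK. It rose by 1.57 ± 0.40 from the transition to the hypertrophic zone, where 6.78% of all probe sets were called higher.

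**Figure D5:**
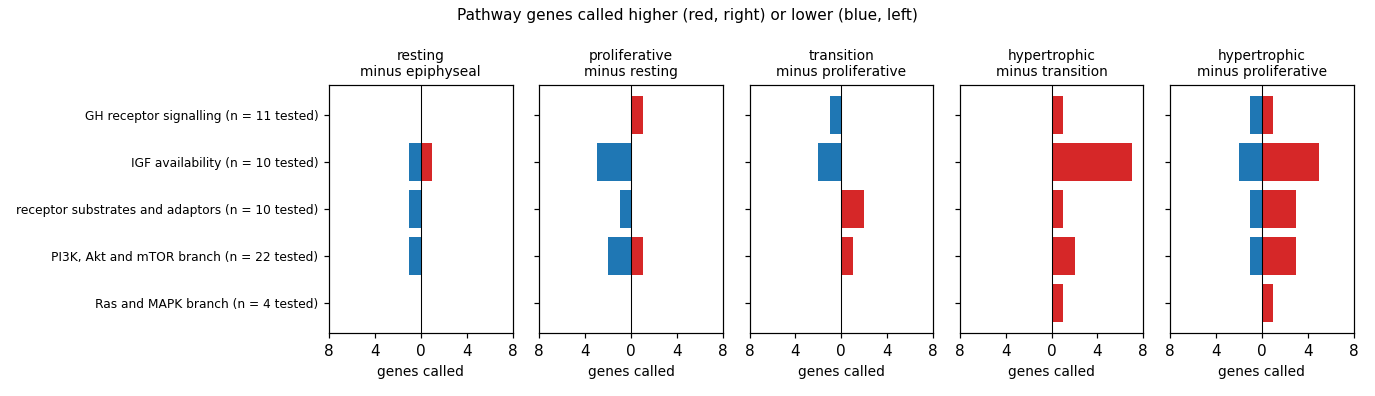
Number of tested pathway genes called higher (red, to the right) or lower (blue, to the left) in 5 comparisons of zones, by list, with the number tested beside each list name. The list on IGF availability has 7 of its 10 genes higher in the hypertrophic than in the transition zone.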

How the data were processed

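RNA of hand-dissected cartilage was amplified in 2 cycles from 50 to 100 ng and hybridised to 24 Affymetrix arrays. The deposited intensity values are MAS5 signals made by the authors, per the submitters' processing notes, and the version and scaling settings are not given in the sources used here. MAS5 scales each array as a whole and gives no detection call here. Probe sets above their array's median on at least 4 arrays were tested (19213 of 31042, with 57 control probe sets used in the median only). Log2(signal + 16) was fitted with limma 3.58.1 (R 4.3.3) over all 24 arrays with zone and animal, a variance trend and Benjamini-Hochberg adjustment over 19213 probe sets, and was tested on simulated data. A gene is represented by its brightest tested probe set. All 9 members are named, as are the 3 genes most correlated with each tested member and the pathway genes that were called, up to 3 a list and comparison. The members and lists were chosen with earlier results of these data known. Arrays with the same animal number deviated together, with a median correlation of 0.176 over 46 pairs against -0.046 over 184 other pairs. Alternatives changed the pseudocount, scaling, filter, block and arrays. Promoter windows come from RefSeq by symbol.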

Additional observations from a re-analysis of the deposited data

Results flagged for a closer look

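Of 90 groups of 4 or 5 arrays (18 probe sets in 5 zones), 9 held 1 array far from the rest, its gap to the nearest array taking up most of the group's range, where chance gives about 1 in 20. Igf1r on its brighter probe set was low in the proliferative array of animal 3, at 3251 against 4926 to 5489.5 in the other 4, and in the hypertrophic array of animal 4, at 1641 against 2409 to 2790.4. Insr was low in the proliferative and transition arrays of animal 1, at 304.7 against 406 to 419 and at 181.5 against 327 to 368. Stat5b was low in the proliferative array of animal 1, at 47.7 against 148 to 186, and Irs1 in that of animal 5, at 381.7 against 550.2 to 614. The other 3 were on probe sets too dim to be tested: the dimmer Ghr probe set in the epiphyseal array of animal 2 (142.8 against 64.3 to 67.9), an Igf2 probe set in the resting array of animal 2 (96 against 19.7 to 27.4) and the dimmer Insr probe set in the transition array of animal 5 (6.6 against 68.8 to 110.1).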

How the results depend on the processing

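The members called were counted again under each alternative. For hypertrophic minus proliferative cartilage the count of 1 was 3 with a pseudocount of 1 and 2 with the arrays scaled to one median. It was 0 with the filter at the 75th percentile, which drops Igf1 from the test. Over all 19213 probe sets, the main fit called 1843 higher and 1742 lower. These counts were 1891 and 1857 with a pseudocount of 1, 1624 and 2112 with one median, and 1000 and 1129 of 10061 with that filter. For hypertrophic minus transition the count of 2 was 1 with a pseudocount of 64, with that filter, with array weights, without the hypertrophic array of animal 4, without the transition array of animal 5 and with the osteoclast and macrophage covariate, the last 3 chosen after seeing the data. Leaving out 1 animal at a time gave 1 to 3 and 1 to 2 for these comparisons. For proliferative minus resting the count of 3 was 2 with a pseudocount of 64 and with the filter at the 75th percentile. It was also 2 without animal 3, without animal 4 and with the osteoclast and macrophage covariate. With no replicate block it was 3, as with the block. Of 2240 values of single members under the alternatives, 33 lost a call, 41 gained one and 0 called values changed sign. A further 53, called in neither fit, changed sign. Signal over background is the limit for Socs2 and for Igf1 in the proliferative and transition zones, where no array exceeded its median. For Igf1 it also limits the resting zone and epiphyseal cartilage, where 3 of 5 and 2 of 4 arrays exceeded the median on the brightest probe set. On the second probe set 1 resting, 1 epiphyseal and 2 of 5 hypertrophic arrays did.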
